A study of Mus musculus with 3 samples.

Results

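The metabotropic glutamate receptors were followed here as 6 genes, Grm2, Grm3, Grm4, Grm5, Grm7 and Grm8, of the 32285 genes in the deposited count table. They were chosen by name, with earlier results of these data known. All 6 had at least 50 UMIs in neuronal nuclei, where a UMI (unique molecular identifier) marks 1 captured transcript. Transcripts were counted in sorted single nuclei of mouse tissue dissected as the lateral habenula. The groups were mothers, virgin males and virgin females, each of 3 mice that gave 1 library. All nuclei were sorted for KASH-GFP, in which a KASH domain anchors the fluorescent protein to nuclei, and are labelled as neurons of the BNST and LHb, the bed nucleus of the stria terminalis and the lateral habenula. The sources used here do not give strain, age or how the fluorescent protein was delivered. With 1 library per group there is no test between groups, and every interval below covers counting error only.

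Metabotropic glutamate receptors are G protein-coupled receptors that sense synaptic glutamate through a large extracellular domain and act on slower time scales than the glutamate-gated channels. They fall into groups by sequence and signalling. Group I, with Grm5, works through Gq proteins and phospholipase C and sits largely on dendrites, where Homer and Shank proteins hold it near the synapse. Group II (Grm2 and Grm3) and group III (Grm4, Grm7 and Grm8) work through Gi and Go proteins, which lower cyclic AMP, and many of them reduce transmitter release from axon endings. In the thalamus and habenula, whose projection neurons are mostly glutamatergic, receptors of all these groups are known to set how strongly inputs act.

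The members lie on different chromosomes or far apart. On GRCm38 (GENCODE M21), Grm2 spans 13.0 kb of chromosome 9 (106643095 to 106656082, minus strand) and Grm3 spans 239.6 kb of chromosome 5 (9485541 to 9725170, minus strand). Grm4 spans 99.0 kb of chromosome 17 (27422387 to 27521403, minus strand), and Grm5 spans 551 kb of chromosome 7 (87584168 to 88134907, plus strand). Grm7 and Grm8 share chromosome 6, with 922 kb (110645581 to 111567230, plus strand) and 860.1 kb (27275119 to 28135178, minus strand). The sources used here do not say whether intronic reads were counted, which would add most UMIs to the longest genes. Levels are therefore compared within a gene and never between genes. Antisense genes overlap Grm2 (Gm28111, 19 UMIs in neuronal nuclei) and Grm7 (Gm20387, 57 UMIs), both few beside the 205 and 18789 UMIs of Grm2 and Grm7.

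Promoter windows were found for 4 of the 6 members in the RefSeq table of GRCm38.p6 and not for Grm4 and Grm5. The windows of Grm2 and Grm8 are shown because these receptors shared cluster 0 as their highest cluster in all 3 libraries. Each line gives the 200 bases that lie 250 to 51 bases before the annotated start, 5′ to 3′ on the gene's own strand, with CG dinucleotides in capitals.
Grm2 (chr9:106656160-106656359, minus strand): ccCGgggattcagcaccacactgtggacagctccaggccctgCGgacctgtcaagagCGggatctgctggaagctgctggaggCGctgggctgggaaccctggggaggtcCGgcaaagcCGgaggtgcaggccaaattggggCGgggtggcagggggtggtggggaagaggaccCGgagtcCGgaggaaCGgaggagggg
Grm8 (chr6:28135197-28135396, minus strand, first of its annotated starts): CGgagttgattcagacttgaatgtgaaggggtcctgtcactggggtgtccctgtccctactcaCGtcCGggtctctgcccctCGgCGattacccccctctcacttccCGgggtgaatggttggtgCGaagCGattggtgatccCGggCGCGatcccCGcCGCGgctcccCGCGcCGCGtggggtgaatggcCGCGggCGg
The Grm2 window held 10 CG dinucleotides and the Grm8 window 21, against a median of 4 over 32851 promoter windows of the same length. The other annotated starts of Grm8 held 5 and 2, the Grm3 window 3, and both Grm7 windows 8. The letters CTTTGA of the TCF/LEF family, searched on both strands, were in none of the 7 windows of the 4 members and in 11.8% of all windows. No match says only that these letters are not in these windows.

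Of 603 nuclei, 592 were annotated as neurons, with 201 in mothers, 204 in virgin males and 187 in virgin females. The median neuronal nucleus held 11898 UMIs in mothers, 9414 in virgin males and 13181 in virgin females. The authors' clusters 0 to 4 held 172, 157, 97, 91 and 75 of these nuclei. Levels are given as CPM, the UMIs of a gene over all UMIs of the same nuclei, scaled to 1000000. All 4 pan-neuronal markers were present in every cluster. The 6 listed lateral habenula markers summed to 899, 1893, 1116, 1173 and 1760.5 CPM in clusters 0 to 4, and the defining habenular factor Pou4f1 had no UMI in clusters 0, 2 and 3. The 6 thalamic markers summed to 7089, 2053, 8266, 10641 and 1454 CPM. Markers of GABAergic neurons, the main type known in the bed nucleus, reached at most 70.7 CPM, in cluster 1. The other lateral habenula markers did not all follow Pou4f1. Gpr151 gave 25, 26, 6, 0 and 1 UMIs in clusters 0 to 4, and Gap43 stood at 138 to 231 CPM in every cluster. The defining marker was thus absent in clusters 0, 2 and 3 while others of the list were present, and clusters are called by number. In cluster 1 of virgin males, 5 nuclei held 721 UMIs of Ttr, a gene of the choroid plexus, which is taken up beside the results it touches.

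Over all neuronal nuclei no receptor differed between libraries by as much as between its highest and lowest cluster. Grm8 was high in cluster 0, Grm4 in clusters 0, 2 and 3, Grm2 in clusters 0 and 2, and Grm7 in every cluster but cluster 1, while Grm3 and Grm5 varied least. Clusters were made by the authors from all genes of these nuclei, so differences between them are a description with no test, and the spread is that of the 3 libraries.

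**Figure D1:**
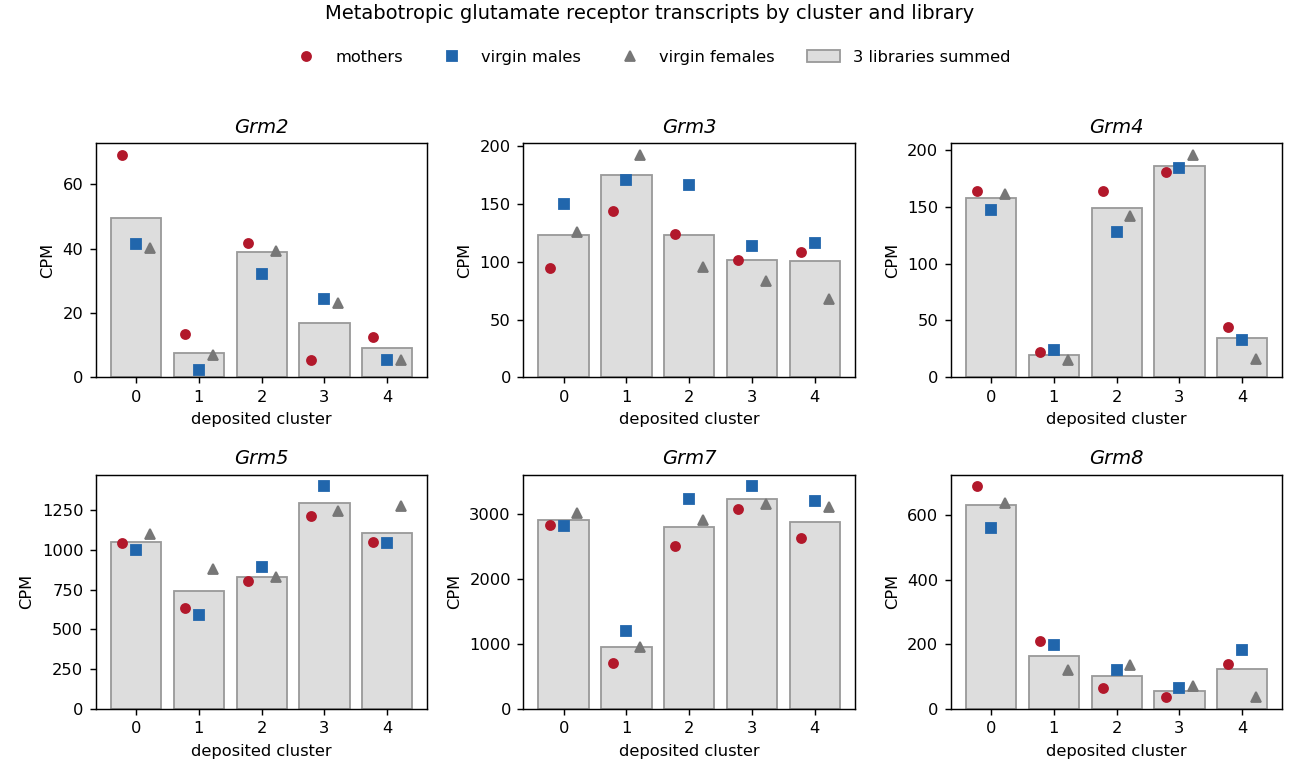
CPM (vertical axis, from 0, own scale per panel) of each receptor gene in clusters 0 to 4 (horizontal axis). Bars give the 3 libraries summed and points the libraries of mothers, virgin males and virgin females. Grm8 stands at 560.3 to 689.9 CPM in cluster 0 and at most 209 CPM elsewhere, and Grm7 is lowest in cluster 1 in every library.

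Grm5, the group I receptor, was seen in all clusters. From cluster 0 to cluster 4 its pooled CPM was 1052 [1009.5, 1096], 742 [703, 784], 831 [783, 880.4], 1293 [1235, 1352] and 1104 [1031, 1180.1], with exact Poisson 95% intervals in brackets. The ratio of cluster 3 over cluster 1 was 1.74-fold. By library, cluster 3 held 1211 CPM in mothers, 1401 in virgin males and 1246 in virgin females, and cluster 1 held 637, 589 and 881 CPM in the same order. Every library was thus higher in cluster 3 than in cluster 1, but in virgin females cluster 4 (1273 CPM) was above cluster 3 and cluster 2 (827 CPM) below cluster 1. Along the order 3, 4, 0, 2, 1, only clusters 0 and 2 had library values that did not overlap.

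Grm2, a group II receptor known as a presynaptic autoreceptor at glutamatergic endings, was sparse, with 205 UMIs in all neuronal nuclei. In cluster 0 it stood at 69.3 CPM in mothers, 41.5 in virgin males and 40.1 in virgin females, and in cluster 2 at 41.7, 32.0 and 39.3 CPM. These clusters overlapped between libraries, and both were above every value elsewhere, where the libraries ranged from 2.17 to 24.5 CPM. Pooled, cluster 0 reached 49.5 CPM [40.5, 59.8] and cluster 1 reached 7.41 CPM [3.95, 12.7], a ratio of 6.67-fold [3.74, 12.9]. The lowest values rest on very few molecules, with 13 UMIs in cluster 1 and 7 in cluster 4.

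Grm3, the other group II receptor and one also known from glia, went against the other members in that cluster 1 was its highest cluster. It stood there at 144 CPM in mothers, 171 in virgin males and 193 in virgin females, against 68.1 to 167 CPM over the libraries of the other clusters. Cluster 1 was highest in each library, although its values overlapped those of cluster 0 and of cluster 2, which held 167 CPM in virgin males. In that library cluster 2 was highest with TMM scaling, without the 5% of nuclei with most UMIs and with the lateral habenula label only. With nuclei weighted equally, cluster 0 was highest there. From cluster 0 to cluster 4 its pooled CPM was 123 [109, 139], 175 [156, 196], 123 [105, 143], 102 [86.6, 120.0] and 100.5 [79.4, 125]. Along the order 1, 0, 2, 3, 4 no pair of neighbours was apart in all libraries. Of the 307 UMIs in cluster 1, 24.1% came from 5 nuclei.

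Grm4, a group III receptor known from thalamic and cerebellar axon endings, split the clusters cleanly. Cluster 3 held 181 CPM in mothers, 184 in virgin males and 196 in virgin females, and cluster 0 held 164, 147 and 161 CPM. Cluster 2 held 164, 128 and 142 CPM. In cluster 1 the values were 22.5, 23.8 and 15.3 CPM, and in cluster 4 they were 44.6, 33.1 and 15.7 CPM. No library of clusters 1 and 4 came near any of clusters 0, 2 and 3, and cluster 3 was above all others in every library. The pooled ratio of cluster 3 (186 CPM) over cluster 1 (19.4 CPM) was 9.58-fold [6.69, 14.1]. The thalamic marker sum given above was likewise high in clusters 0, 2 and 3 and low in clusters 1 and 4, and its part in the Grm4 levels was not tested.

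Grm7, a group III receptor of the presynaptic active zone with low affinity for glutamate, had the most UMIs of the members (18789). Cluster 1 stood apart at 703 CPM in mothers, 1200.2 in virgin males and 946 in virgin females. All other clusters lay between 2518 and 3435 CPM in every library. From cluster 0 to cluster 4 its pooled CPM was 2906 [2835, 2979], 951 [906, 998], 2800.0 [2712, 2890.2], 3238 [3147, 3331] and 2882 [2764, 3004]. Cluster 3 over cluster 1 was 3.40-fold [3.22, 3.60]. Clusters 0, 4 and 2 overlapped in that order, and clusters 2 and 1 did not.

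Grm8, a group III receptor with high affinity for glutamate, was concentrated in cluster 0, which held 1366 of its 1968 UMIs. There it stood at 689.9 CPM in mothers, 560.3 in virgin males and 638 in virgin females. In cluster 1, next in the pooled order, the values were 209, 199 and 120.3 CPM, and no library of any other cluster reached cluster 0. Pooled, cluster 0 stood at 631 CPM [598, 666] and cluster 3, the lowest, at 54.9 [43.6, 68.2], a ratio of 11.5-fold [9.19, 14.6]. Clusters 1, 4, 2 and 3 overlapped with their neighbours in that order. In cluster 4, 52.1% of the 96 UMIs came from 5 nuclei, and in cluster 0 only 15.1% did.

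For 5 of the 6 members 1 cluster was highest in all 3 libraries, Grm5 being the exception, against 21.5% of the 11467 genes with at least 50 UMIs. The lowest cluster was shared by the libraries for 2 of 6 (Grm4 and Grm7, both cluster 1), against 16.0% of genes. Library values of 1 cluster lay above all others for 2 of 6 (Grm4 and Grm8, 12.4% of genes) and below all others for 1 of 6 (Grm7, 7.80% of genes). With TMM scaling the highest cluster of Grm2 and Grm3 was not shared by all libraries, and that of Grm5 was. Since the libraries were clustered together and well-counted genes recur more easily, these shares describe the members and test nothing. The median ratio of highest to lowest cluster was 5.04-fold over the 6 members and 1.92-fold over all 11467 genes.

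Shares of nuclei with a UMI were compared after each nucleus was thinned to 5000 UMIs, which kept 533 neuronal nuclei and left out 59 shallower ones (14 in mothers, 30 in virgin males and 15 in virgin females). Grm8 was seen in 77.9% [70.5, 84.2] of nuclei of cluster 0 and in 21.3% to 34.6% elsewhere, with exact Clopper-Pearson 95% intervals in brackets. Before thinning the share in cluster 0 was 91.3%, and those elsewhere were 33.0% to 46.5%. Grm4 was seen in 52.6%, 45.7% and 57.3% of thinned nuclei of clusters 0, 2 and 3, and in 7.87% [3.84, 14.0] and 13.0% [6.14, 23.3] of those of clusters 1 and 4. Grm2 was seen in 20.1% and 18.1% in clusters 0 and 2, and in 0.787% to 5.80% elsewhere. Grm3 ranged from 31.9% in cluster 4 to 54.3% in cluster 1.

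**Figure D2:**
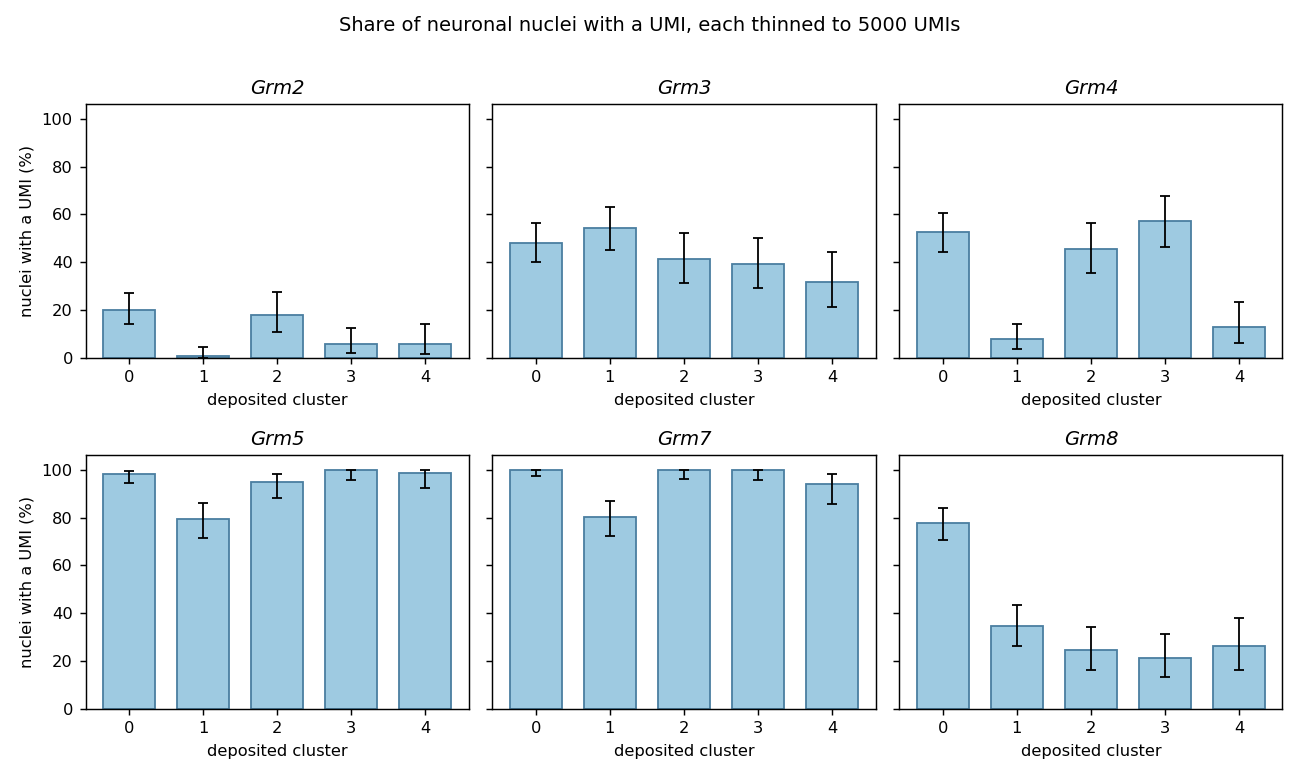
Share of neuronal nuclei (percent, vertical axis from 0) with at least 1 UMI of each receptor gene in clusters 0 to 4 after thinning to 5000 UMIs. Bars give the share over the 3 libraries and whiskers the exact Clopper-Pearson 95% interval. Grm8 stands out in cluster 0 with 77.9%, and Grm5 and Grm7 fall short of the other clusters in cluster 1 with 79.5% and 80.3%.

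Grm5 and Grm7 were seen in nearly every nucleus outside cluster 1, with at least 94.7% and 94.2% of thinned nuclei. In cluster 1 the shares were 79.5% [71.5, 86.2] and 80.3% [72.3, 86.8]. Of the thinned nuclei of cluster 1, 21 held Grm7 and no Grm5 UMI, 20 held Grm5 and no Grm7 UMI, and 5 held neither. Grm7 was seen in 80.2% of the nuclei there with Grm5 and in 80.8% of those without, which is nearly the same share. The median Grm7 count of the 127 thinned nuclei of cluster 1 was 3 UMIs, against 13 to 16 in the other clusters. The lower quartile of Grm7 was 1 in cluster 1 and 10 to 14 elsewhere, so the lower level held across most of its nuclei. Grm5 reached 23 UMIs in 1 nucleus of cluster 1 beside 26 nuclei with none.

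**Figure D3:**
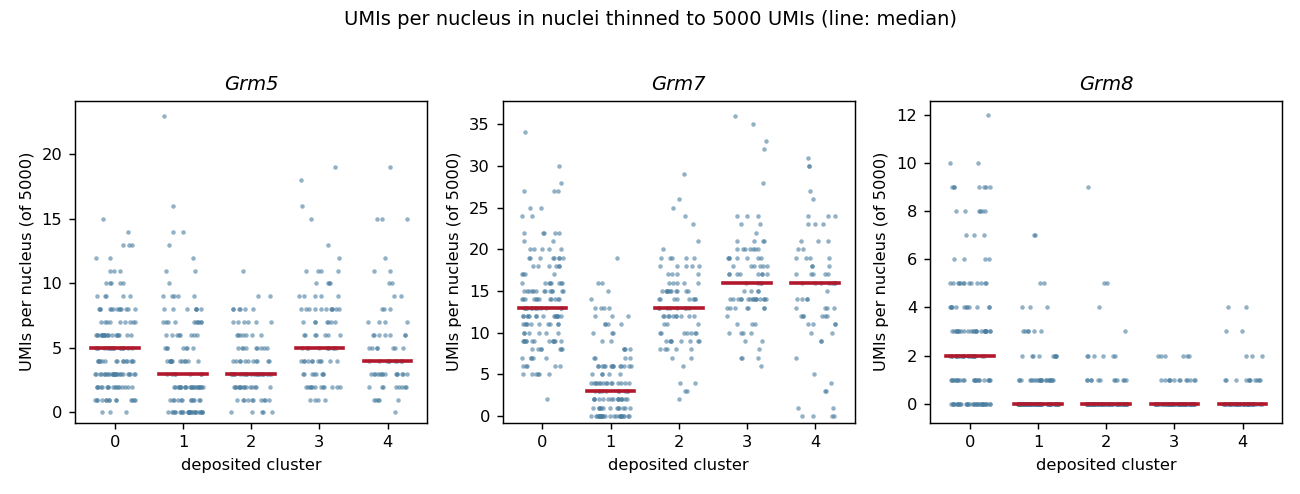
UMIs per nucleus (vertical axis, of 5000 after thinning) of Grm5, Grm7 and Grm8 in clusters 0 to 4. Each point is a neuronal nucleus, spread sideways for legibility, and the line is the median. The Grm7 median is 3 in cluster 1 and 13 to 16 elsewhere, and the Grm8 median is 2 in cluster 0 and 0 elsewhere.

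Members were often seen in the same nucleus. In cluster 0 the median thinned nucleus held a UMI of 4 of the 6 members, and in each other cluster of 3. Grm4 and Grm8 were seen together in 61 of the 154 thinned nuclei of cluster 0, Grm8 alone in 59 and Grm4 alone in 20. Grm8 was seen in 75.3% of the nuclei there with Grm4 and in 80.8% of those without. Grm2 and Grm8 were seen together in 24 nuclei of that cluster and Grm2 without Grm8 in 7. In these sparse counts, a nucleus without a UMI may still have held the transcript.

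The 11 non-neuronal nuclei, of 4780.0 UMIs in the median, served as a rough check of free RNA. No UMI of Grm2, Grm4 or Grm8 was found in them, although 0 of 11 nuclei is a weak limit at that depth. Grm3, which glia are known to express, had 17 UMIs in 5 of the 11 nuclei, from all 3 astrocytes and both oligodendrocytes. Grm5 gave 9 UMIs, all in the 1 polydendrocyte, and Grm7 gave 9 UMIs in 3 nuclei.

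Cluster 1 was not uniform. In the authors' second subtype scheme it was divided between LHb2 (86 nuclei) and LHb4 (71 nuclei). Grm7 stood at 649 CPM [589.7, 712] in LHb4 and 1142 [1079, 1208] in LHb2 nuclei of cluster 1, and Grm5 at 533 [479, 590.4] and 875 [820.1, 933] in the same order. By library, Grm5 stood at 673 CPM in LHb4 and 616 in LHb2 in mothers, at 288 and 852 in virgin males and at 630.4 and 1016 in virgin females, so mothers went against the pooled order. The interval of Grm8 was 77.7 to 127 CPM in LHb4 (68 UMIs) and 178 to 233 CPM in LHb2 (219 UMIs), while Grm3 was close at 168 [138, 201] and 179.7 [155, 207]. The LHb4 nuclei had a median of 8006 UMIs and the LHb2 nuclei 10880.5. In the first scheme, the 21 nuclei of cluster 1 named lhb_4 held 11 Grm7 UMIs, or 84.8 CPM [42.4, 152], but 1079.9 CPM [908, 1274] of Grm5. The 134 lhb_1 nuclei of that cluster stood at 1019 CPM [970.4, 1069.9] of Grm7 and 717 [676, 759.9] of Grm5. Pooled over libraries, the lhb_4 nuclei were thus lower than the lhb_1 nuclei in Grm7 and not in Grm5. Their median depth was 4749 UMIs, against 10284 in lhb_1. The lhb_4 nuclei were not split by library, and whether they include the nuclei rich in Ttr was not computed. Cluster 0 showed no such division for Grm8, with 639 CPM [602, 678] in its 149 lhb_3 nuclei and 596 [524, 676] in its 21 lhb_1 nuclei.

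Over the 15 values of 5 clusters in 3 libraries, the members followed different genes among 6242 compared. The measure was Pearson's r of log2(CPM + 5), given with no test, since the values share libraries and clusters. Grm4 was closest to Rnf112 (0.986), the histamine receptor gene Hrh3 (0.984) and the RNA-binding protein gene Celf2 (0.977). Hrh3, whose receptor also works through Gi and Go, stood at 115, 11.4, 84.4, 104 and 16.7 CPM in clusters 0 to 4. Grm7 was closest to Necab1 (0.960), a calcium-binding protein gene, Kcnip4 (0.951), which encodes a subunit of A-type potassium channels, and Shisa9 (0.947), an AMPA receptor auxiliary subunit gene. Necab1 fell to 10.8 CPM in cluster 1 against 239.5 to 549.5 elsewhere. Grm8 was closest to the axon guidance receptor gene Robo2 (0.917), Mctp1 (0.907) and the integrin gene Itga8 (0.893). Grm2 was closest to Egfem1 (0.910), March1 (0.907) and Ncald (0.906). Likeness was weaker for Grm3 (Desi2, 0.840, Chm, 0.804, and Pik3ca, 0.776) and Grm5 (Fam91a1, 0.846, Fam155a, 0.828, and Vangl1, 0.816). Among the members themselves the highest values were 0.74 for Grm2 with Grm4 and 0.74 for Grm5 with Grm7, and the lowest was -0.62 for Grm3 with Grm5.

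Of 42 listed genes that transmit, scaffold, limit or feed these receptors, 36 had at least 50 UMIs. For 13 of the 36 the highest cluster was the same in all libraries, and for 8 it was also at least 3-fold above the lowest cluster, against 10.6% of all genes. Of these 8, 6 were highest in cluster 3, or 6 of 36 measured genes, against 2.18% of all genes. Grm4 and Grm7 were highest there in every library, and Grm5 in mothers and virgin males. The lists were drawn up with earlier results of these data known, and all genes were not matched to them in depth. No excess of the listed genes is therefore read from these shares.

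On the Gq arm, Plcb4, a phospholipase C used by group I receptors, held 832 CPM in mothers, 612 in virgin males and 762 in virgin females in cluster 3, against 209, 178 and 173 CPM in cluster 1 (3.98-fold [3.51, 4.52] pooled). The scaffold gene Shank2 was 3.54-fold [2.99, 4.20] higher in cluster 3 than in cluster 1, and Shank3 3.34-fold [2.49, 4.56] higher in cluster 3 than in cluster 4. None of the other 7 measured genes of this arm met the rule. Gnaq (176 to 220.2 CPM over the clusters) and Homer1 (48.5 to 74.5 CPM) varied little. Itpr1, the inositol trisphosphate receptor gene, was 3.92-fold higher in cluster 3 (301 CPM) than in cluster 1 (77.0 CPM), and the scaffold gene Homer2 3.20-fold higher in cluster 3 (165 CPM) than in cluster 4 (51.5 CPM), but their highest cluster was not shared by all libraries. None of the 7 genes of the Gi and Go arm met the rule. Gnao1, the main Go subunit of neurons, ranged from 224 to 341 CPM and was highest in cluster 0 in each library. Of the channel genes that Gi and Go proteins open, Kcnj3 ranged from 237 to 403 CPM and Kcnj6 from 162 to 289 CPM. Kcnj9 was 5.61-fold higher in cluster 3 (173 CPM, libraries 138 to 207) than in cluster 4 (30.9 CPM, libraries 15.7 to 42.1). Gnai2, a Gi subunit gene of 109 UMIs, stood at 21.3 CPM in cluster 0 and 1.35 in cluster 3. For Kcnj9 and Gnai2 the highest cluster differed between libraries.

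Among regulators, Rgs7, which speeds the return of Gi and Go proteins to rest, stood at 1278 CPM in cluster 3 and 362 in cluster 4 (3.53-fold [3.11, 4.02]). Rgs4, which does so for Gq as well, was 5.05-fold [2.02, 16.3] higher in cluster 3 than in cluster 4, from 48 and 5 UMIs. The arrestin gene Arrb1 ran the other way, with 96.6 CPM in cluster 4 and 27.1 in cluster 3 (3.56-fold [2.40, 5.37]). Slc17a7, a vesicular glutamate transporter gene, was highest in cluster 3 (55.6 CPM) and without a UMI in cluster 4. Cluster 3 was at least 14.4-fold higher, with 3 UMIs over the summed libraries of cluster 4 as the floor.

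Elfn1, a postsynaptic membrane protein known to recruit Grm7 on the axon ending that faces it, was nearly confined to cluster 1, which held 92.4% of its UMIs. There it stood at 87.8 CPM in mothers, 113 in virgin males and 107 in virgin females, against 0 to 15.7 CPM over the libraries of the other clusters. It had a UMI in 45 of 127 thinned nuclei of cluster 1 and, from cluster 0 on, in 1 of 154, 0 of 94, 1 of 89 and 5 of 69 nuclei of the others. The cluster with the most transcript of this Grm7 partner was thus the cluster with the least of Grm7, and by the second scheme Elfn1 stood at 134 CPM in LHb4 and 84.7 in LHb2 nuclei of cluster 1. Elfn2, its relative, ranged from 27.4 to 46.2 CPM.

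**Figure D4:**
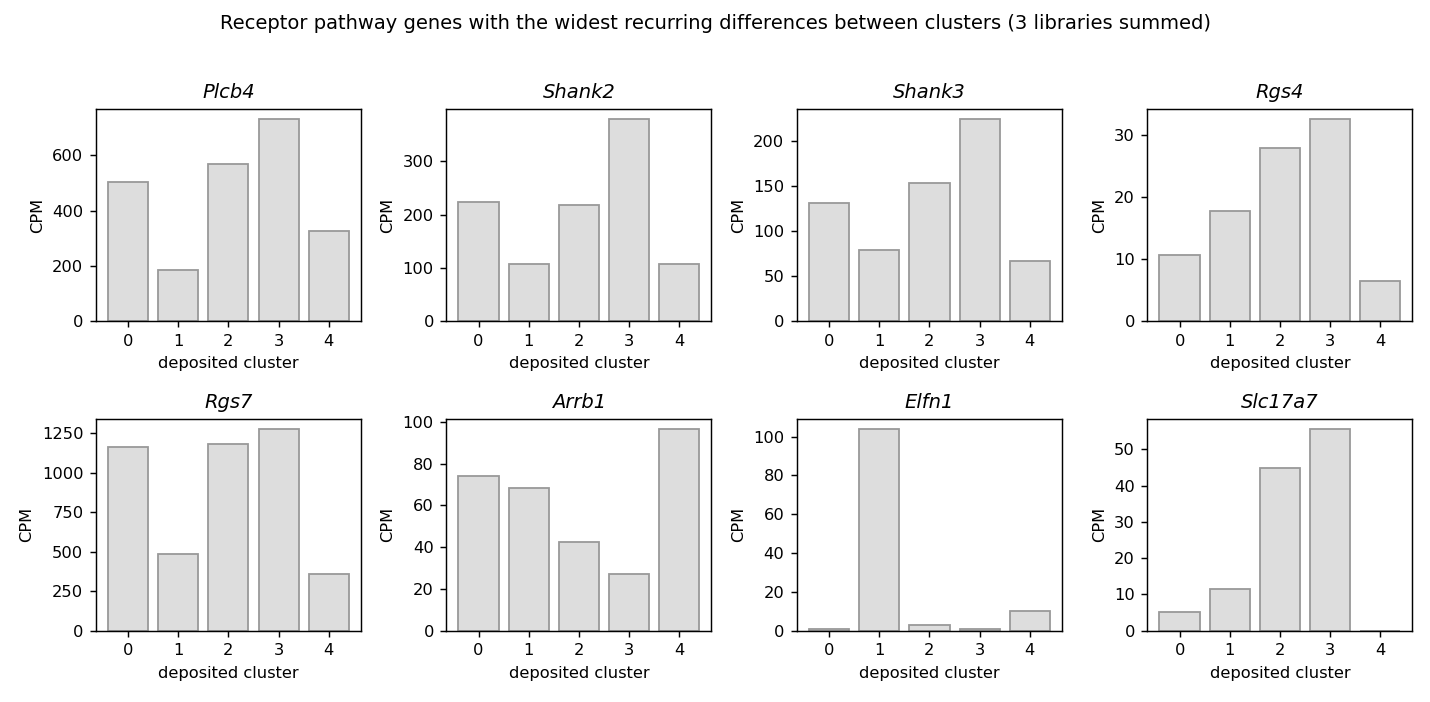
CPM (vertical axis, from 0, own scale per panel) in clusters 0 to 4 of the 8 receptor pathway genes that met the rule. Bars give the 3 libraries summed. Elfn1 reaches 104 CPM in cluster 1 and at most 10.3 elsewhere, and Plcb4, Shank2, Shank3, Rgs4, Rgs7 and Slc17a7 peak in cluster 3.

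The design sets mothers and males beside virgin females. Over all neuronal nuclei no member was past 1.5-fold in any comparison of libraries, a fold counted here where its exact conditional binomial 95% interval was also clear of 1. By this rule 5.65% of 10388 genes were called for mothers over virgin females (2.78% higher, 2.87% lower) and 5.50% of 10024 for virgin males over virgin females (2.23% higher, 3.26% lower). For mothers over virgin males it was 5.05% of 9990 genes (2.92% higher, 2.12% lower). Grm2 gave 86 UMIs in mothers, 51 in virgin males and 68 in virgin females, with intervals of 25.6 to 39.5, 17.9 to 31.6 and 19.4 to 31.7 CPM. It was the exception under 1 alternative, since the mean over nuclei, each weighted equally, was 37.8 CPM in mothers against 24.0 in virgin males and 23.0 in virgin females. Grm3 stood at 113, 144 and 132 CPM, Grm4 at 126, 118 and 107, Grm5 at 957, 1007 and 1016, Grm7 at 2432, 2721 and 2378, and Grm8 at 248, 258 and 277 CPM in mothers, virgin males and virgin females. The folds of mothers over virgin females ran from 0.856 for Grm3 to 1.28 for Grm2. Those of virgin males over virgin females ran from 0.930 for Grm8 to 1.14 for Grm7. These comparisons share libraries and are not independent of each other.

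The libraries held the clusters in different shares, so they were also compared within clusters, counting a member where the pair held 10 UMIs or more. For mothers over virgin females, 6 of 29 pairs of a member and a cluster passed the rule, 3 higher and 3 lower, against 6.81% of 50319 pairs over all genes (3.65% higher, 3.16% lower). For virgin males over virgin females 3 of 27 passed, all higher, against 6.31% (3.16% higher, 3.16% lower). For mothers over virgin males 6 of 28 passed, 1 higher and 5 lower, against 6.90% (3.66% higher, 3.24% lower). Pairs of 1 gene share libraries and nuclei differ among themselves, which the counting intervals leave out. The shares over all genes take in pairs of as few as 10 UMIs and were not matched to the members in depth. No excess of the members is therefore read from them. In nuclei thinned to 5000 UMIs, 3 of these 15 calls passed again, namely Grm8 in cluster 4 over virgin females in mothers and in virgin males, and Grm7 in cluster 1 in mothers over virgin males. Thinned nuclei also gave calls not among the 15, for Grm4 in cluster 0 in mothers over virgin females (0.589-fold) and Grm5 in cluster 1 in virgin males over virgin females (0.604-fold).

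Grm8 gave 8 of these 15 calls, all outside cluster 0. In cluster 4 it stood at 139 CPM (56 UMIs in 16 of 34 nuclei) in mothers, 182 CPM (33 UMIs in 6 of 23) in virgin males and 36.7 CPM (7 UMIs in 4 of 18) in virgin females. The fold was 3.78 [1.72, 9.83] for mothers and 4.96 [2.16, 13.3] for virgin males over virgin females. Both passed under all 12 alternatives, but several of these could not change the outcome. Keeping only nuclei with the lateral habenula label, or leaving out those rich in Ttr, left the cluster 4 values as they were. Dropping the interval or the minimum of UMIs only loosened the rule. In clusters 2 and 3 the mothers' library was the lowest, with 65.8 CPM against 121 in virgin males and 137 in virgin females in cluster 2, and 35.9 against 64.7 and 69.1 CPM in cluster 3. Folds of mothers over virgin females were 0.479 [0.315, 0.720] and 0.520 [0.273, 0.983] there, and those of mothers over virgin males 0.545 [0.337, 0.885] and 0.555 [0.305, 0.982]. In thinned nuclei none of these passed. The lateral habenula marker sum was also lowest in mothers in these clusters. It stood at 924 CPM against 1254 in virgin males and 1292 in virgin females in cluster 2. In cluster 3 it stood at 825 against 1487 and 1217 CPM, and its part was not tested. Most of this sum was Chrm3 and Htr2c, at 291 and 444 CPM in cluster 2 and 598 and 306 CPM in cluster 3, libraries pooled. Pou4f1 had no UMI in either cluster. In cluster 0, where most Grm8 lay, the folds were 1.08 [0.954, 1.23] for mothers and 0.879 [0.766, 1.01] for virgin males over virgin females.

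In cluster 1 Grm8 stood at 209 CPM in mothers, 199 in virgin males and 120.3 in virgin females, or 1.74-fold [1.30, 2.33] and 1.66-fold [1.24, 2.22] over virgin females. The value of virgin males rests on the 5 nuclei rich in Ttr, which held 29 of the 92 Grm8 UMIs. Without them the log2 fold over virgin females was 0.24, against 0.73 with them. Of the mothers' 93 UMIs, 24.7% came from 1 nucleus. By subtype, LHb4 nuclei held 150.3 CPM in mothers, 163 in virgin males and 26.8 in virgin females (25, 35 and 8 UMIs), and LHb2 nuclei held 245, 231 and 171 CPM. These values of virgin males include the 29 Grm8 UMIs of the nuclei rich in Ttr, whose split between the subtypes was not computed.

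Grm2 was higher in mothers in cluster 0, at 69.3 CPM against 41.5 in virgin males (1.67-fold [1.01, 2.81]) and 40.1 in virgin females (1.73-fold [1.09, 2.77]). In cluster 3 it was lower in mothers, with 3 UMIs against 14 in virgin males (0.220-fold [0.0406, 0.789]) and 8 in virgin females (0.234-fold [0.0400, 0.975]). Mothers were also lowest in the lateral habenula marker sum in that cluster. Grm3 in cluster 2 was 1.74-fold [1.13, 2.68] higher in virgin males than in virgin females, and in cluster 0 it stood at 94.9 CPM in mothers against 150.0 in virgin males (0.632-fold [0.452, 0.879]). Grm7 in cluster 1 stood at 703 CPM in mothers against 1200.2 in virgin males (0.586-fold [0.508, 0.674]). It was also lower in mothers within both subtypes of that cluster, at 463 against 814 CPM in LHb4 nuclei and 847 against 1538 CPM in LHb2 nuclei. In virgin males, 1 nucleus gave 17.5% of the Grm7 UMIs of cluster 1. The lateral habenula marker sum moved the same way there, at 1473 CPM in mothers and 2584 in virgin males, and its part was not tested. Beside the calls in thinned nuclei above, no pair of Grm4 or Grm5 passed as reported, and Grm5 in cluster 1, with 589 CPM in virgin males and 881 in virgin females, lay at 0.669-fold, just short of it.

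**Figure D5:**
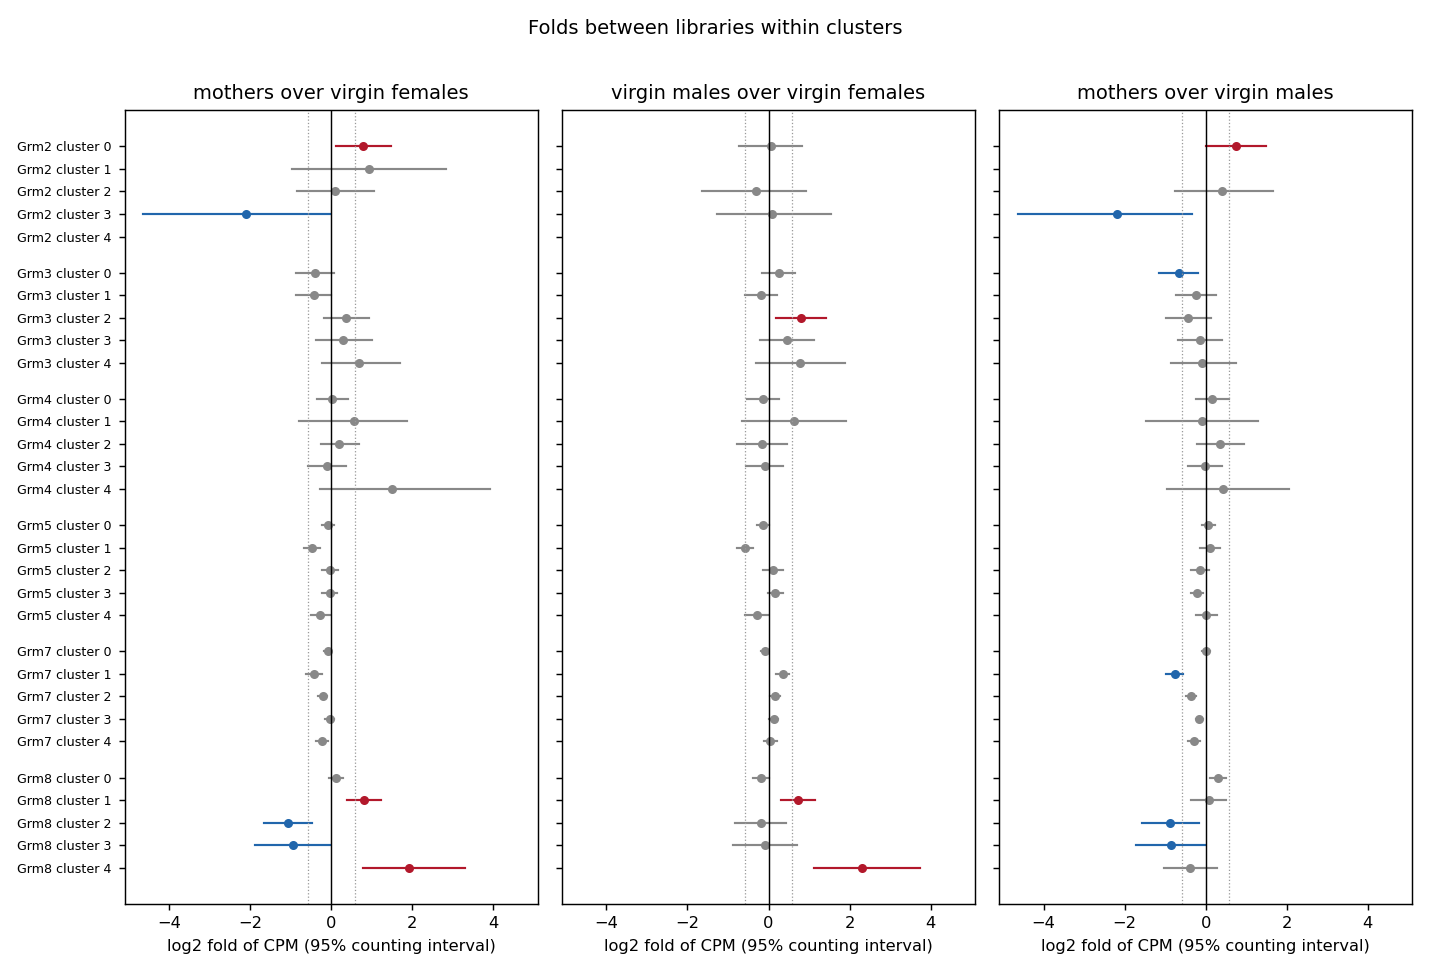
Log2 fold of CPM (horizontal axis) between libraries for each receptor gene in each cluster, with 95% counting intervals, for mothers over virgin females, virgin males over virgin females and mothers over virgin males. Red marks folds past 1.5 upward and blue downward with the interval clear of 1, dotted lines mark 1.5-fold, and pairs under 10 UMIs are left blank. Grm8 in cluster 4 lies highest, at 3.78-fold and 4.96-fold over virgin females, and Grm7 in mothers over virgin males is past 1.5-fold in cluster 1 alone.

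Of the pathway genes, Elfn1 was 0.458-fold [0.313, 0.661] in mothers over virgin females, with 16.3 CPM in mothers, 26.4 in virgin males and 35.7 in virgin females over all neuronal nuclei. Cluster 1, its main source, held 19.4%, 26.0% and 34.8% of those nuclei. Ncdn, the gene of norbin, a protein that binds Grm5, was higher in mothers (46.1 CPM) than in virgin males (30.6 CPM), with a fold interval of 1.11 to 2.06. Sdcbp, the gene of syntenin, stood at 75.8 CPM in virgin males and 49.7 in virgin females (1.53-fold [1.21, 1.93]). Slc17a7 held 34.9 CPM in mothers, 21.7 in virgin males and 12.5 in virgin females, and passed in all 3 comparisons. Within cluster 3 it stood at 61.1, 47.2 and 60.4 CPM in the same order. Cluster 3 held 17.4%, 19.1% and 9.09% of the neuronal nuclei of these libraries, and cluster 2, where it stood at 44.8 CPM, held 22.9%, 12.3% and 13.9%. Of the 36 measured pathway genes, 1 was higher and 1 lower in mothers over virgin females, against 5.65% of all genes called either way. In virgin males over virgin females 2 were higher and 0 lower, against 5.50%. In mothers over virgin males 2 were higher and 1 lower, against 5.05%. The counts lie near these shares, so they do not set the list apart from all genes.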

How the data were processed

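Single nuclei of mouse tissue dissected as the lateral habenula were profiled in 3 libraries (mothers, virgin males, virgin females). Reads were processed with Cell Ranger 5.0.1 and GRCm38 (mm10), per the submitters' processing notes. The authors deposited unnormalised UMI counts per gene and nucleus, and a metadata table with a percent of mitochondrial UMIs, cell class, cluster number and subtype names. The sources used here do not give intron counting, filters on nuclei, clustering settings or the treatment of doublets. No doublet caller was run.

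Nuclei were joined to the metadata by total UMIs and genes with a UMI, a pair unique for all 603 nuclei. The recomputed mitochondrial percent differed from the deposited percent by 0. UMIs of neuronal nuclei were summed by cluster and library and scaled to CPM. Library depth was 2126642 to 2790062 UMIs. Intervals are 95% and exact (Poisson for CPM, Clopper-Pearson for shares, conditional binomial for folds) and cover counting error only. Folds over a level of 0 used 3 UMIs as the lower bound. Folds were called at 1.5 with the interval clear of 1, for genes with at least 50 UMIs in the pair (10 within clusters). The call between whole libraries was run on simulated Poisson counts, which hold no variation between nuclei or mice. The call within clusters was not simulated. The members and gene lists were chosen with earlier results of these data known. All 6 members are named. Pathway genes are named where the highest cluster was the same in all libraries and at least 3-fold the lowest, or where called between libraries, and the 3 most alike genes are named per member. Tamalin was not in the table under that name, and Homer3, Grasp, Slc17a8, Slc1a3 and Folh1 had under 50 UMIs. Alternatives were TMM scaling (edgeR 4.0.16), other totals, nuclei weighted equally, thinned nuclei, nuclei or libraries left out, other folds and minimums. Python 3.11.15, numpy 2.4.6, pandas 2.3.3, scipy 1.17.1 and R 4.3.3 were used.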

Additional observations from a re-analysis of the deposited data

Results flagged for a closer look

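Some members moved in opposite directions in different clusters under the same comparison of libraries, and the difference between the clusters was not tested. Grm8 in mothers over virgin females was 3.78-fold in cluster 4 and 0.479-fold in cluster 2. Grm2 was 1.73-fold in cluster 0 and 0.234-fold in cluster 3 in mothers over virgin females, and 1.67-fold and 0.220-fold in the same clusters in mothers over virgin males. The cluster 3 values of Grm2 rest on 3 UMIs in mothers.

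Signal also appeared in the 11 non-neuronal nuclei, which no comparison used. They held 17 UMIs of Grm3, 9 of Grm5 and 9 of Grm7.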

How the results depend on the processing

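The cluster contrasts (log2 ratio of each member's highest over lowest cluster) kept their direction under all 12 alternatives. Without each library in turn they ran from 2.50 to 2.93 for Grm2, 0.51 to 1.02 for Grm3, 2.98 to 3.39 for Grm4, 0.62 to 1.09 for Grm5, 1.69 to 1.85 for Grm7 and 3.19 to 3.76 for Grm8. In nuclei thinned to 5000 UMIs the contrast of Grm2 moved from 2.74 to 4.85, where cluster 1 kept a Grm2 UMI in 1 nucleus. The count of 5 members with 1 cluster highest in all libraries was 3 without the 5% of nuclei with most UMIs, where Grm3 and Grm7 were lost, and 5 to 6 without each library. With nuclei weighted equally, 1 member (Grm2) passed 1.5-fold over all neuronal nuclei in mothers over virgin females and 1 in mothers over virgin males, against 0 as reported, and the cause was not tested.

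Within clusters, thinned nuclei gave 2 calls for mothers over virgin females, of which Grm4 in cluster 0 was not among the 6 reported, and 1 for mothers over virgin males, against 6, with fewer UMIs counted. A threshold of 2-fold gave 3, 1 and 1 calls for mothers over virgin females, virgin males over virgin females and mothers over virgin males. Without the interval 9 pairs passed for mothers over virgin females, against 6, and 5 for virgin males over virgin females, against 3. Leaving out the nuclei rich in Ttr, or the richest nucleus of each library and cluster, was chosen after seeing the data. Of 431 recomputed values 399 were classed as the same as reported and 32 as moved, and none of the called values changed sign. These values include 10 counts of members with a shared highest cluster. They also include 33 counts of calls between whole libraries and 36 within clusters. Such counts carry no error, so the 399 is not a number of values within error. Some values could not move, such as folds outside cluster 1 without the nuclei rich in Ttr. No paired analysis was possible because each group had 1 library. Depth limits Grm2 in clusters 4 and 1, with 7 and 13 UMIs, and the nuclei rich in Ttr, with 19106 UMIs in all.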

Other observations

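The 5 nuclei of virgin males rich in Ttr, annotated as neurons by the authors, held Grm8 at 1518 CPM, from 29 UMIs of 19106 in all. Ttr itself stood at 37737 CPM in them. They held no UMI of Grm2, Grm3, Grm4 or Grm5 and 1 of Grm7. The 5 nuclei annotated as ependymal held no UMI of any of the 6 receptor genes.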
